A study of Mus musculus with 24 samples.

Results

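The distal end of mouse chromosome 3 was examined gene by gene, from Manba to Wls (mm9, chr3:135148575-159598139), in wild-type (WT) and SmcHD1-knockout (KO) cells at 4 stages of neural differentiation. Members were chosen by their position and by their level: they are the genes whose locus lay wholly within these borders and whose mean over the 24 libraries was at least 1 FPKM (read fragments for each kilobase of a transcript after scaling by library size, so a level per length). Of 131 genes listed in the region, 59 met the limit, among 12105 genes tested over all autosomes. The borders were selected on KO and WT levels of these same libraries, so the KO minus WT differences of the members are given as a description and carry no test of their own. The other 72 genes fell under the limit, and 18 of them were listed at 0 in every library.

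All cells came from JB4/EI7HZ2, a female mouse embryonic stem cell (mESC) line with 1 JF1 and 1 B6 parent. The mESCs were kept in serum with LIF and inhibitors of MEK and GSK3, with G418 and zeocin to keep both X chromosomes. The WT group and the SmcHD1-KO group each had 3 libraries at each stage: mESCs, day 7 and day 9 of differentiation towards neurectoderm as aggregates, and neural stem cells (NSCs) kept in FGF2 and EGF. The KO was 1 line edited with CRISPR–Cas9 and the WT was its parent line, so genotype and line cannot be told apart. The labels do not say whether replicates were separate cultures, and the study's supplement describes the RNA-seq replicates of these cells as biologically independent. Errors and p-values measure the spread between these libraries.

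SmcHD1 is a noncanonical member of the SMC (structural maintenance of chromosomes) protein family and is known for keeping the inactive X and some autosomal gene clusters silent. The distal genes of chromosome 3 share a position, not a pathway. They include housekeeping genes such as H2afz (the histone variant H2A.Z), Eif4e (the cap-binding translation factor) and Gtf2b (a basal factor of RNA polymerase II), and genes used in differentiation, such as Bmpr1b (a BMP receptor), Lmo4 (a LIM-only transcriptional cofactor) and Wls (the carrier of Wnt proteins to the cell surface). Lists of members by role were set from general knowledge, and they hold 51 of the 59 members.

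The targeted gene, Smchd1, was listed at 12.96 to 26.4 FPKM in the 12 WT libraries and at 1.82 to 4.40 FPKM in the 12 KO libraries. The edits were small deletions in an early exon, so most of the transcript could still be counted in KO. Relative read numbers, read from the step between low values, ran from 0.809 to 1.15 over the libraries, and absolute read numbers were not used here. Marker sums followed the labelled stages: the 4 pluripotency genes Pou5f1, Nanog, Fgf4 and Sox2 summed to 2409 to 2875 FPKM in mESCs and to 108 to 212 FPKM in NSCs. The NSC sum was nearly all Sox2, with means of 185 FPKM in WT and 131 FPKM in KO. Pou5f1, Nanog and Fgf4 averaged at most 0.584 FPKM there. At day 9 the pluripotency sums were higher in KO, at 238 to 306 FPKM against 186 to 227 FPKM in WT. Sox2 made up most of these sums, with means of 186 FPKM in KO and 148 FPKM in WT. Pou5f1 averaged 53.5 and 38.6 FPKM, Nanog 28.5 and 20.2 FPKM and Fgf4 3.99 and 2.87 FPKM. In NSCs the 4 NSC genes Vim, Fabp7, Nes and Olig2 summed to 5204 to 6685 FPKM in WT and to 3699 to 4580 FPKM in KO, without overlap. Fabp7 made up most of this sum, with means of 3862 FPKM in WT and 2800 FPKM in KO. Olig2 went the other way, at 338 FPKM in WT and 361 FPKM in KO. The 3 neurectoderm genes Sox1, Pax6 and Zfp521 were higher in KO, at 92.8 to 105 FPKM against 56.1 to 71.4 FPKM in WT at day 7 and at 108 to 129.6 FPKM against 60.9 to 97.6 FPKM at day 9. At day 7 the WT libraries also held more endoderm and mesoderm RNA than the KO libraries. The 5 endoderm genes (Gata4, Gata6, Sox17, Foxa2 and Cer1) summed to 61.0 to 152 FPKM in WT and 1.09 to 4.58 FPKM in KO. The 5 mesoderm genes (Snai1, Tbx6, T, Meox1 and Mixl1) summed to 63.0 to 162 FPKM in WT and 3.64 to 5.53 FPKM in KO. In bulk RNA, fewer cells of a type and less RNA per cell cannot be told apart. At day 9 the endoderm sums were 28.2 to 52.2 FPKM in WT and 4.70 to 14.4 FPKM in KO, and the mesoderm sums 17.2 to 47.7 and 6.51 to 16.2 FPKM. In mESCs the endoderm sums were at most 2.97 FPKM in either genotype and the mesoderm sums 10.5 to 16.3 FPKM in WT and 14.2 to 21.8 FPKM in KO. In NSCs the endoderm sums were 0 to 0.176 FPKM in WT and 1.59 to 4.00 FPKM in KO. The part of these marker differences in the results below was not tested.

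Genes from Pdlim5 to the end of the chromosome were lower in KO than in WT in mESCs, day 7 and day 9, and the genes before Pdlim5 were closer to WT levels. The split between Bmpr1b and Pdlim5 was set after the values were seen. It leaves 17 members from Manba to Bmpr1b and 42 from Pdlim5 to Wls. For the 42, the KO level as a share of WT had a median of 61.5% in mESCs, 60.2% in day 7 cells, 59.6% in day 9 cells and 87.3% for NSCs. For the 17 before the split it was 89.2%, 86.1%, 106% and 102%. On the log2(FPKM + 1) scale, the median KO minus WT difference from Pdlim5 to Wls was -0.64, -0.68, -0.54 and -0.16 in the 4 stages. Over all 59 members it was -0.46, -0.56, -0.41 and -0.10. In NSCs the median of the members was -0.17 without WT replicate 3, and scaling each library to the same FPKM sum gave -0.054 for the members, -0.10 from Pdlim5 to Wls and 0.057 for all genes. The other 521 tested genes of chromosome 3 had median differences of -0.0051, -0.019, -0.011 and -0.012, and all tested genes 0.00065, -0.00052, 0 and 0.0073. Below, 4 differences in a row are KO minus WT on this scale in mESCs, day 7, day 9 and NSCs. Their standard errors (SE) ran from 0.087 to 0.54 over the members, with a median of 0.15.

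Every library of the first 3 stages showed the difference. Measured from the mean of the WT libraries of its stage, the median over the 42 genes was -0.60, -0.53 and -0.58 in the KO mESC libraries, against -0.0080, -0.0083 and 0.017 in WT. It was -0.74, -0.63 and -0.68 in KO and 8.7e-05, 0.012 and 0.036 in WT at day 7, and -0.59, -0.52 and -0.56 in KO and -0.017, -0.024 and 0.062 in WT at day 9. KO and WT libraries were far apart in these stages, and the KO libraries lay close to each other. In NSCs the KO libraries were at -0.18, -0.17 and -0.12 and the WT libraries at 0.18, 0.017 and -0.13, so that the genotypes overlapped and the WT libraries spread more than the KO libraries.

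**Figure D1:**
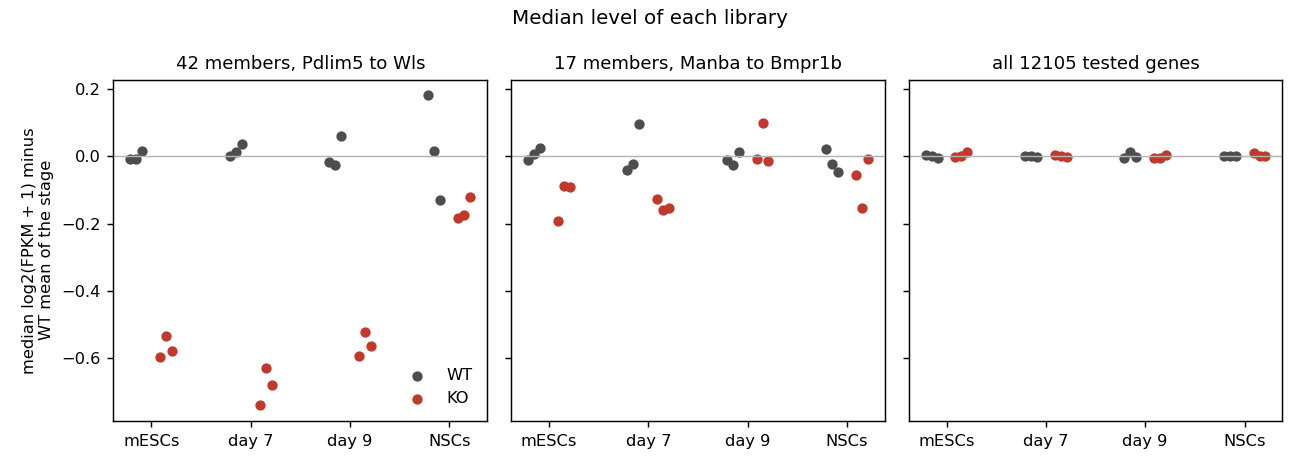
Each point is 1 library; the vertical axis is the median over the named genes of log2(FPKM + 1) minus the mean of the WT libraries of the same stage, with WT in grey and KO in red. From Pdlim5 to Wls the 9 KO libraries of mESCs, day 7 and day 9 lie between -0.74 and -0.52, whereas the medians over all 12105 tested genes stay near 0.

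Counts of members past the test across all genes (limma, adjusted p under 0.05) are given beside the share of all tested genes. In mESCs 19 of 59 members were called lower in KO, where 0.413% of all tested genes were, and 0 were called higher, where 0.116% of all genes were. At an unadjusted p under 0.05 limma gave 34 lower and 0 higher. The 19 all lay from Pdlim5 to Wls. Without WT replicate 3 the count was 10, and without KO replicates 1, 2 and 3 it was 9, 10 and 8. Fitting the 6 mESC libraries alone with limma called 0 members, with 32 lower and 1 higher at an unadjusted p under 0.05. Adding replicate numbers as a blocking term to that fit gave 2, with 31 lower and 1 higher at an unadjusted p under 0.05. At day 7, 29 members were called lower (2.5% of all genes) and 0 higher (1.18%; also 0 at an unadjusted p under 0.05), and without WT replicate 2 the count was 19. At day 9, 23 members were called lower (4.11%) and 3 higher (2.58%). The 3 were Bmpr1b, Slc44a5 and Wls. Slc44a5 met the limit of 1 FPKM only through KO day 9, at a mean of 5.32 FPKM against 0.746 FPKM over the other 7 groups, so its call there is not read as a result. In NSCs 6 members, Bmpr1b, Gtf2b, Ctbs, Fam73a, Pigk and Cth, were called lower (3.48%) and 0 higher (2.54%), and at an unadjusted p under 0.05 limma gave 15 and 3. The count was 3 without KO replicate 2 and 1 with the NSC libraries fitted alone. With the replicate block added to that fit it was 0, with 16 lower and 2 higher at an unadjusted p under 0.05. Members whose 3 KO values all lay below the 3 WT values numbered 32 in mESCs (5.93% of all genes), 42 at day 7 (12.3%), 36 at day 9 (16.8%) and 18 in NSCs (8.54%).

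Along the chromosome the first member called lower in mESCs was Pdlim5, which starts 3.16 Mb beyond the end of Rap1gds1. Bmpr1b is the 1 member between them, 257 kb before Pdlim5, and its direction changed between stages, so the start of the step is not placed more closely by these genes. In windows of 5 Mb with at least 5 tested genes, of which there were 450 over the autosomes, the 4 windows between 140 and 160 Mb of chromosome 3 had the 4 lowest medians of all in mESCs and at day 7. Their mESC medians were -0.63, -0.75, -0.41 and -0.73 from 140 Mb onwards, and the window from 135 to 140 Mb was at -0.055. At day 7 they were -0.85, -0.74, -0.51 and -0.57, after -0.13 from 135 to 140 Mb. At day 9 the window from 140 to 145 Mb was the lowest of all at -0.80, and those that followed were at -0.64, -0.26 and -0.41. Windows of chromosome 5 (-0.70) and chromosome 1 (-0.53) ranked among the lowest 4 at that stage. NSCs differed along the stretch: the window from 140 to 145 Mb was again the lowest of the 450 at -0.39, the next was at -0.16, and the last 2 were at 0.011 and 0.043. The next lowest in NSCs were a window of chromosome 10 at -0.34 and 4 of chromosome 11 at -0.31 to -0.27. Whole autosomes had medians between -0.16 and 0.044 in any stage.

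**Figure D2:**
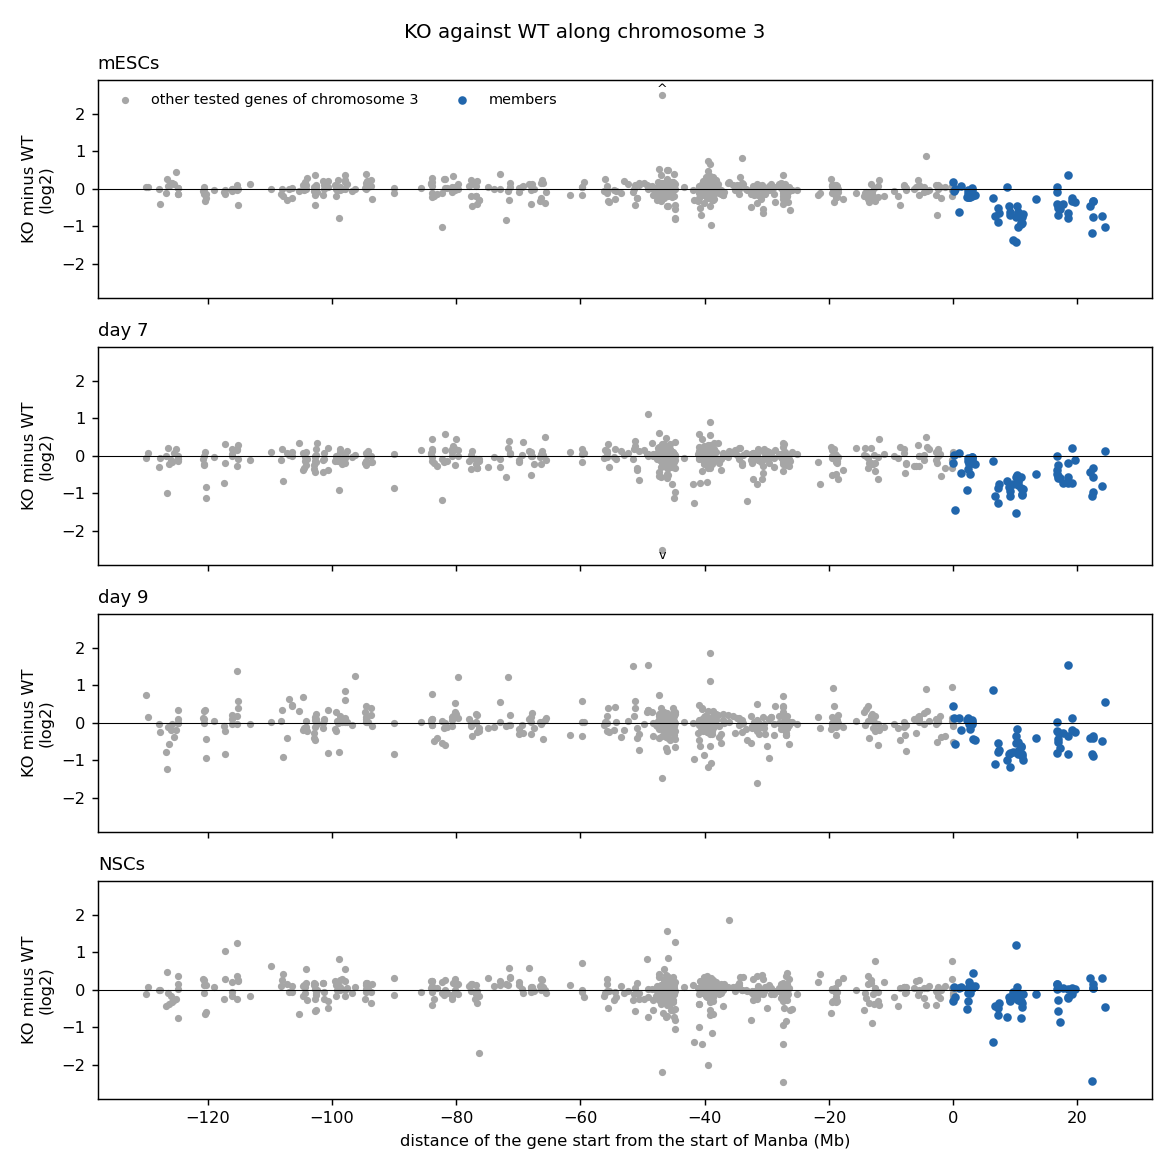
Each point is a tested gene of chromosome 3, placed by the distance of its start from that of Manba in Mb, with its KO minus WT difference in log2(FPKM + 1) on the vertical axis; members are blue and other genes grey, and differences beyond 2.5 either way are drawn at 2.5 with a mark. Members beyond 6.75 Mb, where Pdlim5 starts, sit mostly below 0 in mESCs, day 7 and day 9, and in NSCs they lie on both sides of 0.

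Levels showed no step at the proximal border. Just outside it, Ube2d3, a ubiquitin-conjugating enzyme, had differences of -0.024, 0.058, -0.044 and -0.093 in mESCs, day 7, day 9 and NSCs, and its neighbour 4930539J05Rik had 0.089, 0.016, -0.52 and -0.19. Just inside, Manba, the lysosomal beta-mannosidase, had 0.18, -0.19, 0.44 and -0.30, and Nfkb1, which encodes the p105/p50 subunit of NF-κB, had -0.067, 0.03, 0.12 and 0.069. The last 2 members were Depdc1a, a gene of mitotic cells, with -0.73, -0.79, -0.48 and 0.32, and Wls with -1.01, 0.13, 0.56 and -0.45. Around the limit on the mean, Mttp (lipoprotein assembly) and 1700030L20Rik were just above it at means of 1.10 and 1.17 FPKM, and Dapp1 and Ttll7 were just below it at 0.873 and 0.881 FPKM.

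Of the abundant genes before Pdlim5, H2afz, Adh5 and Metap1 overlapped between the genotypes in each stage. H2afz was at 1011, 1464 and 1481 FPKM in WT and 1137, 1413 and 1263 FPKM in KO mESCs, and its differences in the 4 stages were -0.037, -0.069, 0.13 and -0.31. Adh5, the formaldehyde-oxidizing alcohol dehydrogenase, was at 192, 225 and 225 FPKM in WT and 181, 214 and 227 FPKM in KO mESCs, with differences of -0.044, -0.039, 0.08 and 0.10. Eif4e had differences of -0.20, -0.073, 0.031 and 0.036, and its mESC levels were 92.4 to 116 FPKM in WT and 91.03 to 93.01 FPKM in KO. Metap1, which removes the first methionine from new proteins, had 0.016, -0.031, -0.026 and 0.046. Rap1gds1, an exchange factor for small GTPases, ends at chr3:138738163 and was at 12.98, 13.6 and 13.6 FPKM in WT and 11.6, 11.7 and 12.1 FPKM in KO mESCs and 26.2, 29.8 and 27.996 FPKM in WT and 20.02, 21.1 and 19.2 FPKM in KO at day 9. Its differences, -0.17, -0.21, -0.46 and 0.11, placed every KO library below every WT library in the first 3 stages, and it was the 1 gene before Pdlim5 called lower at day 9. Tspan5, a tetraspanin, had -0.16, -0.18, -0.42 and 0.44, with KO below WT in every day 9 library.

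A few genes before Pdlim5 stood apart from these in some stages. Slc39a8, a zinc transporter, was at 4.27, 10.3 and 8.09 FPKM in WT and 2.0998, 2.296 and 1.62 FPKM in KO at day 7, a difference of -1.45 (SE 0.20), and at 0.125, 0.133 and 0.138 FPKM in WT and 0.195, 0.0646 and 0.153 FPKM in KO mESCs, where it was barely expressed. Ddit4l, an inhibitor of mTORC1 signalling, was at 2.09, 6.36 and 4.67 FPKM in WT and 1.58, 1.98 and 1.56 FPKM in KO at day 7, and Ppp3ca, the catalytic subunit of calcineurin, was at 13.03, 17.2 and 16.7 FPKM in WT and 10.6, 10.96 and 11.7 FPKM in KO. In these 3 genes every KO library of day 7 lay below every WT library. The same held for Slc39a8 at day 9 and in NSCs, for Ddit4l in mESCs and NSCs and for Ppp3ca at day 9, without a call. The KO libraries of day 7 also had the lower endoderm and mesoderm sums given above, whose part in the day 7 differences was not tested. Bmpr1b, the last member before Pdlim5, was at 0.299, 0.239 and 0.165 FPKM in WT and 0, 0.04 and 0.0918 FPKM in KO mESCs, with every KO library below every WT library at these low levels. It was at 3.17, 2.698 and 3.06 FPKM in WT and 6.15, 5.37 and 7.303 FPKM in KO at day 9 and at 4.96, 5.53 and 4.197 FPKM in WT and 1.22, 1.57 and 0.942 FPKM in KO NSCs. KO was above WT in every day 9 library and below WT in every NSC library.

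**Figure D3:**
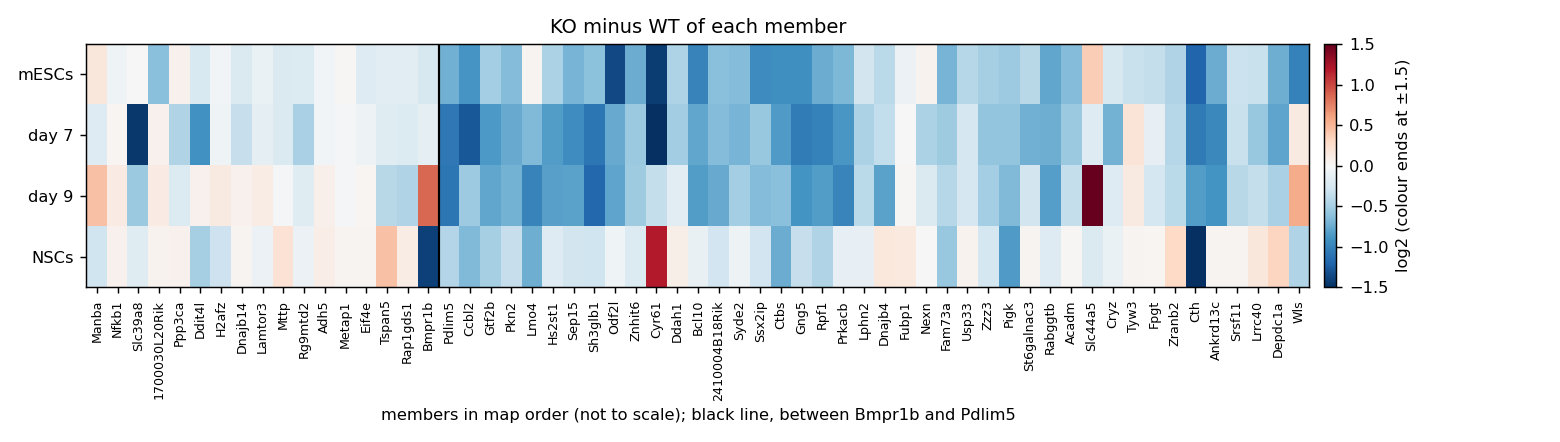
Columns are the 59 members in map order and rows the 4 stages; colour gives the KO minus WT difference in log2(FPKM + 1), blue where KO was lower, with the scale ending at 1.5 either way. Right of the line between Bmpr1b and Pdlim5 nearly every column is blue in mESCs, day 7 and day 9, with Fubp1, Slc44a5 and Wls among the exceptions, and colours fade in NSCs.

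Pdlim5 (chr3:141902549-142058660), a PDZ and LIM domain protein of the cytoskeleton, was the first gene beyond the step. It was at 9.45, 9.99 and 9.04 FPKM in WT and 5.198, 5.56 and 5.34 FPKM in KO mESCs, 9.23, 10.4 and 9.696 FPKM in WT and 4.24, 4.94 and 3.25 FPKM in KO at day 7 and 6.75, 9.604 and 10.3 FPKM in WT and 4.13, 3.54 and 3.15 FPKM in KO at day 9. The KO level was 56.5%, 42.4% and 40.6% of WT, and 72.9% in NSCs (27.4, 29.2 and 25.04 FPKM in WT and 18.002, 20.1 and 21.4 FPKM in KO). No KO library reached a WT library at any stage.

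Signalling genes beyond the step had medians of -0.68, -0.78, -0.84 and -0.30 over the 7 members there. Over all 13 signalling members, including 6 before the step, 6, 7, 6 and 1 were called lower and 0, 0, 2 and 0 higher in mESCs, day 7, day 9 and NSCs. Counts of this and the following lists stand beside 0.413%, 2.5%, 4.11% and 3.48% of all tested genes called lower and 0.116%, 1.18%, 2.58% and 2.54% called higher. The mESC and NSC counts of a list rest on calls most of which were lost with the compared groups fitted alone. Such fits left 0 and 1 of all members, and 2 and 0 with the replicate block added. Gng5, a gamma subunit of heterotrimeric G proteins and the most abundant of them, was at 367, 374 and 448 FPKM in WT and 206, 199 and 219 FPKM in KO mESCs and 352, 414 and 459 FPKM in WT and 216, 197 and 175 FPKM in KO at day 7. It was at 334, 356 and 384 FPKM in WT and 203, 230.1 and 152 FPKM in KO at day 9 and 262, 203 and 165 FPKM in WT and 218, 150.2 and 129 FPKM in KO NSCs. Its KO level was 52.5%, 47.99%, 54.5% and 78.8% of WT, and its libraries overlapped only in NSCs. Bcl10, an adaptor that links antigen receptors to NF-κB, was at 25.6, 22.1 and 24.4 FPKM in WT and 12.1, 10.8 and 11.5 FPKM in KO mESCs and 22.1, 19.6 and 21.7 FPKM in WT and 11.4, 13.1 and 11.3 FPKM in KO at day 7. It was at 18.4, 18.3 and 16.5 FPKM in WT and 8.64, 9.02 and 10.8 FPKM in KO at day 9 and 19.9998, 12.8 and 13.9 FPKM in WT and 14.9, 13.6 and 14.02 FPKM in KO NSCs. The genotypes were well apart in the first 3 stages, and in NSCs the KO values lay within the WT range. Prkacb, a catalytic subunit of protein kinase A, followed the same order: its differences were -0.68, -0.88, -0.99 and -0.12. Pkn2, a serine/threonine kinase, had -0.65, -0.76, -0.71 and -0.34, with KO below WT in every library. Sh3glb1, the membrane-curving protein endophilin B, was at 19.5, 19.5 and 19.5 FPKM in WT and 8.89, 9.54 and 7.75 FPKM in KO at day 7 and at 20.7, 23.8 and 23.8 FPKM in WT and 9.87, 9.04 and 9.59 FPKM in KO at day 9. Its differences of -1.08 (SE 0.10) and -1.17 (SE 0.10) compare with -0.62 (SE 0.10) in mESCs and -0.30 (SE 0.10) in NSCs, and KO was below WT in every library of all 4 stages. Of the 6 signalling members before the step, Lamtor3, a scaffold of the lysosomal mTORC1 machinery, had -0.10, -0.15, 0.11 and -0.087, and Nfkb1, Ppp3ca, Ddit4l, Rap1gds1 and Bmpr1b are given above. Lphn2, an adhesion receptor of the latrophilin group, had -0.27, -0.48, -0.41 and -0.12.

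Among transcription and chromatin genes, 4 lay beyond the step. Gtf2b was at 52.5, 49.9 and 56.4 FPKM in WT and 35.4, 34.5 and 40.8 FPKM in KO mESCs and 35.7, 36.3 and 41.96 FPKM in WT and 19.6, 21.6 and 20.4 FPKM in KO at day 7, and remained lower in every KO NSC library (32.8, 25.9 and 19.5 FPKM in WT and 17.3, 17.3 and 18.8 FPKM in KO). Zzz3, a subunit of the ATAC histone acetyltransferase complex, had differences of -0.50, -0.59, -0.50 and -0.26, with no overlap of the genotypes in any stage. The table gives it the same span as Ak5 and AI115009, so reads there may have been shared out between genes. Lmo4 was low in mESCs, at 1.42, 1.18 and 1.41 FPKM in WT and 2.49, 1.86 and 0.388 FPKM in KO, and the genotypes overlapped. It was at 30.02, 33.7 and 35.6 FPKM in WT and 22.6, 19.02 and 19.8 FPKM in KO at day 7, 35.5, 38.1 and 35.7 FPKM in WT and 18.5, 20.4 and 14.7 FPKM in KO at day 9 and 69.9, 39.4 and 31.5 FPKM in WT and 30.8, 28.6 and 20.6 FPKM in KO NSCs, with every KO library below every WT library. Over the 5 genes of this list, H2afz included, 1, 2, 3 and 1 were called lower in the 4 stages and 0 were called higher.

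The list of RNA processing and translation genes holds 9 members, among them Rabggtb, which has another role. The other 8 had 2, 3, 3 and 0 called lower, with medians of -0.46, -0.42, -0.41 and 0.043 over the 5 beyond the step. Rabggtb, listed together with the small nucleolar RNA Snord45c, encodes a subunit of the enzyme that prenylates Rab proteins. It was at 103, 105 and 115 FPKM in WT and 61.5, 60.4 and 65.5 FPKM in KO mESCs and 63.3, 60.3 and 68.96 FPKM in WT and 39.1, 33.9 and 42.3 FPKM in KO at day 7, so that the highest KO mESC library was far below the lowest WT one. Rpf1, a ribosome assembly factor, was at 47.4, 64.3 and 71.5 FPKM in WT and 29.9, 37.3 and 39.8 FPKM in KO mESCs and 71.8, 52.2 and 70.2 FPKM in WT and 28.2, 33.7 and 31.9 FPKM in KO at day 7. Znhit6, which serves in box C/D small nucleolar particle assembly, had -0.74, -0.56, -0.54 and -0.21 and did not overlap in any stage. The splicing proteins Srsf11 and Zranb2 differed less. Srsf11 had -0.33, -0.34, -0.41 and 0.043 and Zranb2 -0.46, -0.42, -0.40 and 0.30, and in NSCs all 3 Zranb2 values of KO (26.3 to 30.9 FPKM) lay above those of WT (17.6 to 26.1 FPKM). Tyw3, an enzyme of tRNA modification, had -0.34, 0.20, 0.13 and 0.044. The table gives it the same span as Cryz, a quinone reductase, so reads may have been shared out between them; Cryz had -0.24, -0.71, -0.19 and -0.10. Rg9mtd2, Metap1 and Eif4e, are the 3 genes of this list before the step, and Rg9mtd2 had -0.21, -0.49, -0.18 and -0.088.

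Of the 15 metabolic enzymes and transporters, 3, 8, 2 and 3 were called lower (0.413%, 2.5%, 4.11% and 3.48% of all genes) and 0, 0, 1 and 0 higher, the 1 being Slc44a5. The 3 calls in NSCs were lost with the NSC libraries fitted alone and the replicate block added. Ccbl2, a kynurenine aminotransferase, was at 18.97, 15.7 and 22.8 FPKM in WT and 11.1, 8.95 and 9.45 FPKM in KO mESCs and 6.005, 5.45 and 6.49 FPKM in WT and 2.03, 1.93 and 1.73 FPKM in KO at day 7, where KO was 31.7% of WT. Acadm, the medium-chain acyl-CoA dehydrogenase of fatty acid oxidation, was at 53.7, 47.5 and 44.6 FPKM in WT and 32.4, 33.02 and 26.2 FPKM in KO mESCs and 17.2, 27.9 and 23.4 FPKM in WT and 19.6, 23.9 and 24.9 FPKM in KO NSCs. In mESCs the genotypes were apart, and in NSCs they overlapped. St6galnac3, a sialyltransferase, had -0.42, -0.72, -0.27 and 0.039, and Fpgt, an enzyme of fucose salvage, had -0.35, -0.12, -0.26 and 0.031 with overlap in each stage. Hs2st1, a heparan sulfate sulfotransferase, had -0.47, -0.84, -0.82 and -0.19, and Ddah1, which breaks down methylarginines, had -0.46, -0.52, -0.16 and 0.087. Pigk, a subunit of the GPI transamidase, kept its difference in NSCs: it was at 4.41, 3.16 and 3.83 FPKM in WT and 1.804, 1.41 and 1.74 FPKM in KO there. Ctbs, the lysosomal chitobiase, was lower in KO in all 4 stages as well (-0.92, -0.85, -0.63 and -0.75), and the table gives it the same span as Spata1. Cth, the cystathionine gamma-lyase that makes cysteine, was at 40.8, 24.7 and 27.5 FPKM in WT and 13.8, 11.1 and 13.6 FPKM in KO mESCs and 21.1, 26.7 and 17.5 FPKM in WT and 11.4, 9.62 and 8.43 FPKM in KO at day 7. In NSCs it was at 2.38, 9.16 and 8.51 FPKM in WT and 0.654, 0.234 and 0 FPKM in KO, the largest difference of any member in any stage at -2.44 (SE 0.31). Its first WT NSC library was well below the other two but above every KO library.

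Sep15, a selenoprotein of the endoplasmic reticulum, was at 131, 119 and 136 FPKM in WT and 72.6, 78.9 and 86.2 FPKM in KO mESCs, 109, 131 and 142 FPKM in WT and 63.9, 68.7 and 64.9 FPKM in KO at day 7 and 164, 148 and 123 FPKM in WT and 137, 109.7 and 111 FPKM in KO NSCs. Of the 3 genes of its list, Sep15, Dnajb4 and Usp33, 1, 1, 2 and 0 were called lower, with medians of -0.43, -0.37, -0.81 and 0.056, and Usp33, a deubiquitinase, had -0.43, -0.25, -0.25 and 0.056. Ssx2ip, a centrosome protein, was at 8.72, 11.4 and 9.38 FPKM in WT and 5.198, 4.71 and 3.93 FPKM in KO mESCs and 11.3, 12.1 and 9.86 FPKM in WT and 7.48, 6.49 and 7.38 FPKM in KO at day 7. Depdc1a was at 6.57, 6.304 and 7.098 FPKM in WT and 2.84, 4.53 and 3.06 FPKM in KO at day 7 and 8.46, 5.53 and 4.63 FPKM in WT and 8.55, 7.35 and 7.49 FPKM in KO NSCs, where KO was no longer below WT. Of these 2 cell division genes 1, 2, 1 and 0 were called lower, and of the 4 neural surface and cytoskeletal genes 1, 1, 1 and 0. Cyr61, a matricellular protein and the 1 member on the extracellular matrix list, varied widely between libraries. Its mESC values were 30.4, 61.4 and 15.8 FPKM in WT and 12.7, 21.3 and 4.65 FPKM in KO. Its NSC values were 3.75, 5.38 and 2.13 FPKM in WT and 22.3, 6.25 and 5.69 FPKM in KO. KO was below WT in every same-numbered mESC pair and above it in every NSC pair. Its differences of -1.42, -1.51, -0.36 and 1.19 had an SE of 0.54, which leaves this pairing out. None was called in the main fit. Over 14 settings the limma adjusted p ran from 0.041 to 0.99 in mESCs and from 0.0015 to 0.40 at day 7. The lowest was 0.095 at day 9 and 0.20 in NSCs. No member belongs to the list of interferon-induced GTPases, of which 6 genes are in the table with means under 1 FPKM.

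On no list were 8 members. Odf2l, which is related to outer dense fibre proteins, was at 7.89, 5.29 and 6.496 FPKM in WT and 2.52, 2.56 and 1.02 FPKM in KO mESCs, and at 5.54, 4.53 and 3.24 FPKM in WT and 3.696, 4.56 and 4.11 FPKM in KO NSCs. Ankrd13c was at 24.6, 29.5 and 25.4 FPKM in WT and 13.7, 17.1 and 15.5 FPKM in KO mESCs, 11.04, 10.9 and 11.9 FPKM in WT and 5.27, 5.59 and 6.02 FPKM in KO at day 9 and 11.002, 12.02 and 11.5 FPKM in WT and 10.4, 12.1 and 13.1 FPKM in KO NSCs. The genotypes were apart in the first 3 stages and interleaved in NSCs. Syde2 had -0.65, -0.70, -0.51 and -0.075, 2410004B18Rik -0.63, -0.65, -0.76 and -0.28, Lrrc40 -0.33, -0.57, -0.35 and 0.17 and Fam73a -0.70, -0.54, -0.42 and -0.56. The other two, 1700030L20Rik and Dnajb14, lie before the step and overlapped in each stage.

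**Figure D4:**
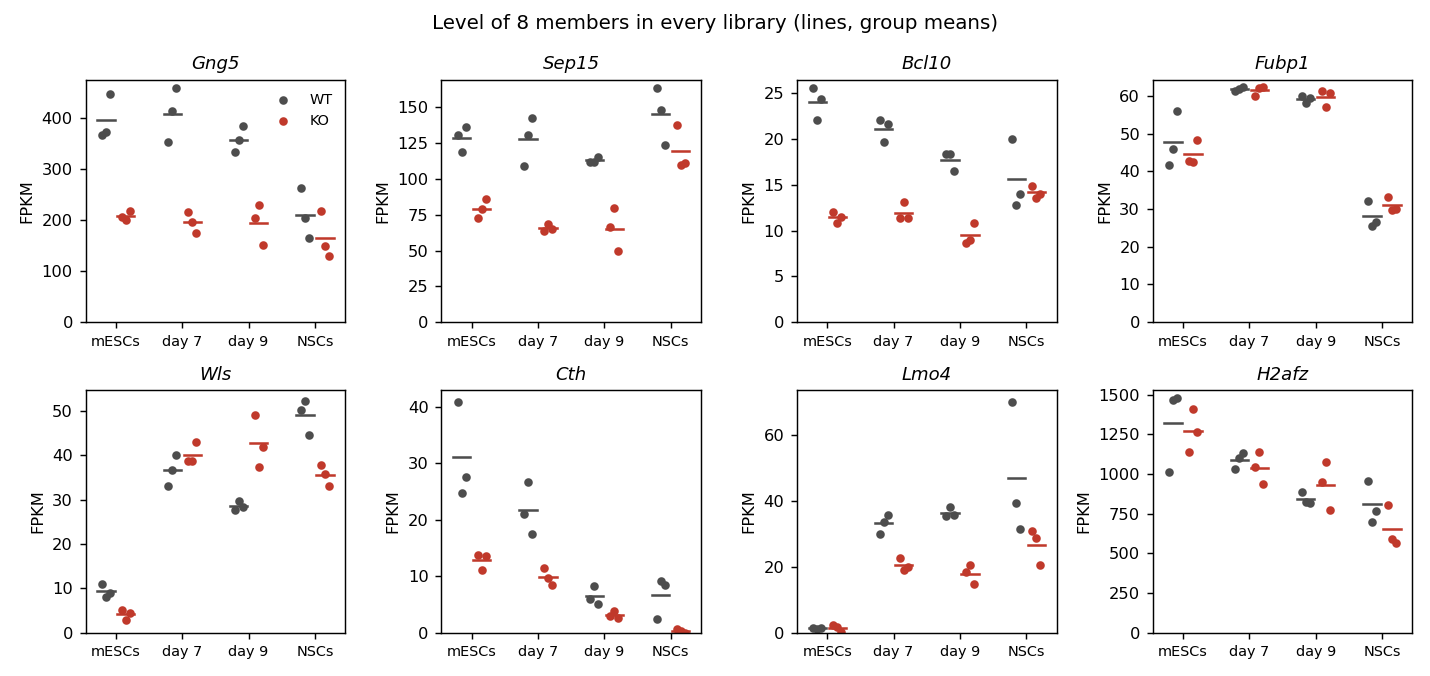
FPKM of 8 members in every library, by stage, with WT in grey, KO in red and group means as lines; each vertical axis starts at 0. Gng5, Sep15 and Bcl10 are lower in KO in the first 3 stages and overlap with WT in NSCs, the ranges of Fubp1 and H2afz overlap in each stage, Wls changes direction between stages, Cth is lower in KO in NSCs too, and Lmo4 is lower in KO from day 7 on and overlaps with WT in mESCs. Between same-numbered NSC libraries, KO was below WT in all 3 pairs for Gng5, Sep15 and H2afz, in 1 of 3 for Bcl10 and in 0 of 3 for Fubp1.

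The step had exceptions beyond Pdlim5. In mESCs 39 of the 42 genes were below 0, at day 7 40, at day 9 38 and in NSCs 27. Fubp1, a regulator that binds single-stranded DNA upstream of Myc, was at 41.6, 46.05 and 56.1 FPKM in WT and 42.9, 42.6 and 48.4 FPKM in KO mESCs and 61.3, 61.9 and 62.3 FPKM in WT and 60.1, 62.3 and 62.5 FPKM in KO at day 7. It was at 59.98, 58.3 and 59.5 FPKM in WT and 61.5, 57.1 and 60.9 FPKM in KO at day 9 and 32.2, 25.5 and 26.6 FPKM in WT and 33.2, 29.9 and 29.9 FPKM in KO NSCs. The 2 genotypes overlapped in every stage, and its differences were -0.092, -0.0047, 0.012 and 0.14. Slc44a5, a choline transporter-like protein, was listed at 0, 0.0526 and 0 FPKM in WT and 0.666, 0.158 and 0.182 FPKM in KO mESCs and was higher in KO at day 9, at 1.67, 0.991 and 0.917 FPKM in WT and 5.44, 4.69 and 5.84 FPKM in KO. Nexn, an actin-binding protein, had 0.053, -0.47, -0.22 and 0.0077. Wls, the last member, was at 10.9, 7.99 and 9.05 FPKM in WT and 5.22, 2.81 and 4.5003 FPKM in KO mESCs and 32.97, 36.7 and 40.1 FPKM in WT and 38.6, 38.6 and 43.02 FPKM in KO at day 7. It was at 27.6, 29.7 and 28.3 FPKM in WT and 49.1, 37.2 and 41.9 FPKM in KO at day 9 and 50.2, 52.1 and 44.6 FPKM in WT and 37.8, 35.8 and 33.1 FPKM in KO NSCs. KO was below WT in mESCs, overlapped with it at day 7, was above it at day 9 and was below it again in NSCs.

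Fubp1 starts 158 bases from Dnajb4, a co-chaperone of Hsp70 transcribed from the other strand, and the 2 genes were furthest apart at day 9. Dnajb4 had differences of -0.41, -0.37, -0.81 and 0.16, and at day 9 it was at 7.61, 5.86 and 5.699 FPKM in WT and 3.34, 4.12 and 2.33 FPKM in KO. In mESCs its genotypes overlapped, at 0.469 to 1.70 FPKM in WT and 0.259 to 0.521 FPKM in KO. In NSCs it was close to Fubp1, which had 0.14. The difference between the 2 genes was not tested. In all, 4 pairs of members on opposite strands point away from each other with a gap of at most 300 bases between their listed spans. The sequence between the 2 starts is shown to set the other pairs beside this one. Members with the same or overlapping spans were not searched. Among them are Cryz and Tyw3, on opposite strands, which had -0.71 and 0.20 at day 7. Hs2st1 and Sep15, 210 bases apart, were both lower in KO: Hs2st1 had -0.47, -0.84 and -0.82 and Sep15 had -0.69, -0.94 and -0.81 in mESCs, day 7 and day 9. Srsf11 and Lrrc40, 63 bases apart, had -0.33 and -0.33 in mESCs, -0.34 and -0.57 at day 7 and -0.41 and -0.35 at day 9. Mttp and Rg9mtd2 (a tRNA methyltransferase), 149 bases apart, lie before the step and differed little from each other in mESCs (-0.22 for Mttp, -0.21 for Rg9mtd2). Mttp was at -0.22 at day 7, -0.032 at day 9 and 0.21 in NSCs, where Rg9mtd2 had -0.49, -0.18 and -0.088. The sequences are from the NCBIM37 (mm9) genome, plus strand, between the starts given in the authors' table. Capitals mark matches on either strand to the GC box, searched as GGGCGG, or to the CCAAT box. The ETS core motif, searched as CCGGAA, and the TATA box, searched as TATAAA, had no match in the 4 windows, and no match overlapped another.
Dnajb4/Fubp1, chr3:151873264-151873421: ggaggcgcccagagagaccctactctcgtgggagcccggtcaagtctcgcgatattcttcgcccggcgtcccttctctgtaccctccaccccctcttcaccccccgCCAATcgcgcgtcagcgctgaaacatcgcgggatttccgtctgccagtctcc
Hs2st1/Sep15, chr3:144233181-144233390: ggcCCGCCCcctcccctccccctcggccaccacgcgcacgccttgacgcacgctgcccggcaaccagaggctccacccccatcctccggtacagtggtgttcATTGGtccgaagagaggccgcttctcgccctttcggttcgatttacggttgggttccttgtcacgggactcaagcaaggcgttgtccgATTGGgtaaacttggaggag
Srsf11/Lrrc40, chr3:157699604-157699666: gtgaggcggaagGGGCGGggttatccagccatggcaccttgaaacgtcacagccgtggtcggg
Mttp/Rg9mtd2, chr3:137806353-137806501: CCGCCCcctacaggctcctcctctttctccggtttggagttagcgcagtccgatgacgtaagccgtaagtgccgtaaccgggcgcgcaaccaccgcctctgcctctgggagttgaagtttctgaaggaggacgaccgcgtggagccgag
The interval of Dnajb4 and Fubp1 holds 1 CCAAT and no GC box, and those of Srsf11 and Lrrc40 and of Mttp and Rg9mtd2 hold 1 GC box and no CCAAT. Between Hs2st1 and Sep15 there are 1 GC box and 2 CCAAT boxes. Of 32851 RefSeq promoter windows (GRCm38) cut to 158 bases, 29.1% hold the GC box, 25.3% the CCAAT box, 9.51% the ETS core and 7.91% the TATA box. Cut to 210 bases, 31.4% hold the GC box, 30.3% the CCAAT box, 10.9% the ETS core and 10.5% the TATA box. Cut to 149 bases the shares are 28.6%, 24.3%, 9.21% and 7.55%, and cut to 63 bases 19.2%, 11.5%, 5.50% and 4.08%, in the same order. All 4 intervals were rich in G and C, between 62.4% and 65.1%.

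The members also changed with differentiation in WT cells, a comparison that shares its WT libraries with the borders but not its contrast. Against WT mESCs, 14 members fell and 19 rose at day 7, where 30.2% of all tested genes fell and 29.1% rose (limma, adjusted p under 0.05). At day 9, 21 fell and 19 rose, beside 35.1% and 36.4% of all genes, and in NSCs 30 fell and 16 rose, beside 38.3% and 36.9%. Among those that fell in each later stage was 1700030L20Rik. It met the limit of 1 FPKM only through WT mESCs, at a mean of 2.41 FPKM against 0.995 FPKM over the other 7 groups. Its fall is therefore not read as a result. The borders were set with these WT mESC levels known, so the counts are a description. Scaling each library to the same FPKM sum moved the median change of all genes up by 0.19, 0.32 and 0.37, and the calls were then 9 lower (18.4% of all genes) and 21 higher (36.4%) at day 7. At day 9 they were 12 lower (21.6%) and 27 higher (48.3%), and in NSCs 22 lower (25.3%) and 20 higher (49.6%). From Pdlim5 to Wls the median change in WT NSCs was -0.42, which is -0.41 relative to the median of all genes (-0.39 after scaling). In KO NSCs the same genes had a median change of 0.064 from KO mESCs. The 42 genes were set apart by their KO and WT levels, so these medians are a description. The rest of chromosome 3 changed by medians of 0.089 in WT and 0.078 in KO.

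Among the largest changes with differentiation were those of Lmo4, which rose by 3.87 (SE 0.26, adjusted p = 6.6e-11) at day 7, 4.00 (SE 0.26, adjusted p = 1.6e-11) at day 9 and 4.28 (SE 0.26, adjusted p = 3.4e-12) in NSCs on the log2 scale, and Manba, with changes of -2.22, -2.84 and -3.92 and an adjusted p of 1.3e-13 in NSCs. WT Manba was at 32.6 to 70.3 FPKM in mESCs and 1.97 to 3.15 FPKM in NSCs. Of 13 signalling genes, 7 rose at day 7, 7 at day 9 and 7 in NSCs (29.1%, 36.4% and 36.9% of all genes), against 0, 2 and 4 that fell (30.2%, 35.1% and 38.3%). After scaling to the same sum 7, 8 and 8 rose, beside 36.4%, 48.3% and 49.6% of all genes, and 0, 0 and 3 fell, beside 18.4%, 21.6% and 25.3%; the lists that follow stand beside the same shares. In NSCs Wls rose by 2.28 (SE 0.14, adjusted p = 3.3e-12) and Ppp3ca by 2.15 (SE 0.1, adjusted p = 4.3e-14). WT Bmpr1b was at 0.165 to 0.299 FPKM in mESCs and 4.197 to 5.53 FPKM in NSCs, and it met the limit of 1 FPKM only through the later stages. All 4 neural surface and cytoskeletal genes rose in NSCs, Pdlim5 by 1.42 (SE 0.14, adjusted p = 4e-09) and Tspan5 by 1.97 (SE 0.19, adjusted p = 3e-09). Of 8 RNA processing and translation genes, Rabggtb left out, 3 fell at day 7, 7 at day 9 and 7 in NSCs, with 0 that rose (1, 3 and 6 fell and 0, 1 and 0 rose after scaling to the same sum). Znhit6 fell by 1.86 (SE 0.11, adjusted p = 1.2e-12), Rpf1 by 1.53 (SE 0.17, adjusted p = 2.7e-08) and the Rab-prenylating subunit Rabggtb by 1.75 (SE 0.15, adjusted p = 7.4e-10) in NSCs. Metabolic genes went both ways, 6 lower and 3 higher in NSCs (5 and 4 after scaling), with Ddah1 at 27.5 to 31.7 FPKM in mESCs, 8.21 to 9.05 FPKM at day 7 and 37.9 to 57.02 FPKM in NSCs.

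The KO minus WT difference in a later stage minus that in mESCs was fitted as an interaction over all tested genes. It is made of the levels that chose the members, so their values are a description. At day 7, 1 member was called with a lower difference than in mESCs (1.02% of all genes) and 1 with a higher one (0.661%). At day 9 these were 1 (1.35%) and 3 (1.32%), and in NSCs 1 (1.12%) and 4 (1.14%). In NSCs 5 members were called: Bcl10, Zranb2, Ankrd13c and Odf2l, whose KO level was closer to WT or above it, and Bmpr1b, which was lower. With the mESC and NSC libraries fitted alone limma called 1. With the replicate block added to that fit it called 0, with 16 higher and 3 lower at an unadjusted p under 0.05. The count was 3 without KO mESC replicate 3 or WT NSC replicate 3, 8 without WT NSC replicate 2 and 11 without WT NSC replicate 1. At day 7 the 2 members called were Wls and Slc39a8, and 4 were called without WT day 7 replicate 1. At day 9 Wls, Bmpr1b, Slc44a5 and Sh3glb1 were called, and 2 without any of KO mESC replicate 2, WT day 9 replicates 2 and 3 and KO day 9 replicates 1 and 3. All these comparisons share the mESC libraries.

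Genes of the region under 1 FPKM on average were mostly silent: their median mean was 0.0211 FPKM, and 13 reached 1 FPKM on average in at least 1 group. Emcn, the endothelial sialomucin endomucin, averaged 2.48 FPKM in WT and 0.0490 FPKM in KO at day 9, and 2.70 and 0.584 FPKM in NSCs. Gipc2 averaged 2.198 FPKM in WT mESCs and 0.677 FPKM in KO mESCs, and St6galnac5 2.31 and 0.378 FPKM at day 9. Unc5c, a netrin receptor, was higher in KO at day 9, at 2.23 FPKM against 1.23 FPKM. Ttll7, a tubulin glutamylase, averaged 0.536 FPKM in WT and 0.252 FPKM in KO at day 7 and 1.30 and 0.560 FPKM at day 9. Dapp1 and Pdha2 were highest in WT mESCs, at 2.43 and 1.14 FPKM, where KO averaged 1.89 and 0.829 FPKM. These genes were not members. A failed estimate was marked for 1 gene outside the X and Y chromosomes, so an exact 0 was as a rule not marked as failed.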

How the data were processed

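RNA was sequenced from 24 libraries, 3 each of WT and KO cells at 4 stages, prepared from poly(A)+ RNA with a stranded kit. The deposited values are FPKM per gene, computed by the authors with Cuffdiff after trimming with Trim Galore 0.6.6 (quality 20, length 35), removal of ribosomal and X-linked reads and alignment to mm9 with TopHat2 2.1.1. Absolute read numbers were not used. Of the 36 FPKM columns, 12 were not used. Starts in the table count from 0 and were raised by 1.

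Values were tested as log2(FPKM + 1) with limma 3.58.1 in R 4.3.3 (8 group means, moderated with trend and robust settings) over 12105 autosomal genes with a mean of at least 1 FPKM, with Benjamini-Hochberg adjustment. The pseudocount understates changes of low genes. The fit was tested on simulated data. Alternatives were a pseudocount of 0.1, other limits on the mean, other scalings, fits of only the compared groups and leaving out each library. The replicate block was added to the fits of only the compared groups.

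Members and lists were chosen with earlier results of these data known. The genes singled out by rule were the 4 largest differences per stage with a group mean of at least 5 FPKM, the 8 highest means, the most abundant gene of each role list and the genes at the borders and at the limit. Other members are named for their role or after their values were seen. Same-numbered WT and KO libraries deviated together from their group means in mESCs (correlations 0.29, 0.44 and 0.14) and NSCs (0.34, 0.18 and 0.24), so the numbers were taken to pair these libraries, and not at day 7 (0.096, 0.084 and 0.038) or day 9 (0.015, 0.029 and -0.11).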

Additional observations from a re-analysis of the deposited data

Results flagged for a closer look

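In 11 cases the KO minus WT difference of a member, in log2(FPKM + 1), differed between a later stage and mESCs past the threshold of the limma interaction fitted over all tested genes. The members were chosen by the KO and WT levels that make up these differences, so each is given as a description, as the later difference minus that in mESCs. All share the mESC libraries.

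Wls had 1.15 (SE 0.20) at day 7 and 1.57 at day 9, and both were called under all 19 alternatives. Slc39a8 had -1.45 (SE 0.29) at day 7 and was called under 16 of 18, all but the pseudocount of 0.1 and the replicate block. Its mESC libraries were at 0.0646 to 0.195 FPKM, where the pseudocount of 1 holds any difference small. Bmpr1b had 1.11 (SE 0.23) at day 9, called under all 18 alternatives, and 2.29 with a pseudocount of 0.1. In NSCs it had -1.16, which was -0.66 with a pseudocount of 0.1 and was called neither there nor with the replicate block. Slc44a5 had 1.17 (SE 0.27) at day 9 and was called under 11 of 18 alternatives. It met the limit of 1 FPKM only through KO day 9, at a mean of 5.32 FPKM against 0.746 FPKM over the other 7 groups, so the call is not support for a difference. Its value was 0.38 with a pseudocount of 0.1, and its WT mESC libraries were at 0, 0.0526 and 0 FPKM. Sh3glb1 had -0.55 (SE 0.14) at day 9 and was called under 6 of 19.

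In NSCs the KO level of 4 genes beyond Pdlim5 was nearer to WT than in mESCs, or above it. Bcl10 had 0.90 (SE 0.18), Ankrd13c 0.78 (SE 0.16), Zranb2 0.76 (SE 0.18) and Odf2l 1.29 (SE 0.29). Bcl10 and Ankrd13c were called under 17 of 19 alternatives, Odf2l under 13 and Zranb2 under 11. All 4 were lost with the mESC and NSC libraries fitted alone, with or without the replicate block.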

How the results depend on the processing

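Differences kept their direction under every alternative for the median of the members, and counts of calls moved more than the differences did. With only the compared groups fitted, 0 members were called in mESCs and 1 in NSCs, and 1 in the interaction of NSCs. Those fits with the replicate block added gave 2 calls in mESCs and 0 in NSCs. They gave 1 in the interaction at day 7 and 0 in that of NSCs, and no other count moved by over 1.5 times from the main fit. A mean of at least 5 FPKM gave 2 calls in NSCs, and 1 in the interaction at day 7 and at day 9. A pseudocount of 0.1 gave 1 and 2 there. The median of the members was -0.55 in mESCs and -0.62 at day 7 with a pseudocount of 0.1, and -0.52 at day 9 and -0.054 in NSCs after scaling to the same sum. The median from Pdlim5 to Wls, a split made after seeing the data, was -0.68 in mESCs and -0.72 at day 9 with a pseudocount of 0.1. It was -0.68 in mESCs, -0.66 at day 9 and -0.19 in NSCs with a mean of at least 5 FPKM, and -0.64 at day 9 and -0.10 in NSCs after scaling to the same sum. The cause of these shifts was not tested, apart from the smaller number of libraries or genes fitted.

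Leaving out single libraries gave 8 to 17 calls in mESCs, 19 to 26 at day 7, 19 to 24 at day 9 and 3 to 8 in NSCs, with medians of the members from -0.47 to -0.44, -0.58 to -0.55, -0.43 to -0.40 and -0.17 to -0.080. From Pdlim5 to Wls the medians ran from -0.62 to -0.58, -0.72 to -0.62, -0.58 to -0.49 and -0.22 to -0.13. Interactions gave 2 to 4 calls at day 7 and at day 9 and 3 to 11 in NSCs. Of 1388 values of single genes under alternatives, 80 lost and 22 gained a call. A change of sign was seen in 51, none of them called, and in all but 1 the difference was smaller than its SE. The exception was Rabggtb in NSCs, at 0.027 without WT NSC replicate 1, in a range of -0.34 to 0.027 over single libraries left out. The deposited FPKM values hold no read counts, so counting error of low genes was not computed.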
